A study of Nothobranchius furzeri with 228 samples.

Results

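The fish described here are 36 male turquoise killifish (*Nothobranchius furzeri*, strain MZM-0410) whose age at death, as the sample labels give it, lay between 250 and 330 days. They were drawn from 114 fish that gave a fin clip at an age of 10 weeks and another at 20 weeks, with one RNA-seq library for each clip, so that 72 of the 228 libraries are used. Of the 36 fish, 23 carry an animal number from 1 to 50 and 13 a number from 51 to 84, out of 48 and 34 fish with a known age at death in these ranges. All are males of one strain, no treatment is named in their labels, and each fish is its own reference. The comparison asks whether the change in fin transcripts between the clips differed between the ranges of numbers among fish that died in the same window. What an animal number stands for is not stated in the labels, so the range and anything that goes with it, such as the hatch, the tank or the day and hour of clipping, cannot be told apart. These were not described in the sources used here.

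The fin is a sheet of epidermis over bony rays, with fibroblasts, blood vessels, nerves, pigment cells and resident leukocytes, and its transcripts report on all of these at once. Several sets of its genes are known to follow the state of the animal. Clock genes cycle over the day, glucocorticoid-responsive genes follow the stress hormone cortisol, immediate early genes respond within minutes to handling or injury, and genes of amino acid synthesis, protein folding and the proteasome follow nutrient supply and the load of protein to be folded or degraded. In a bulk sample, fewer cells of a type and less RNA per cell cannot be told apart.

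The 72 libraries held between 17607400 and 37764100 counts, and the genes tested, 17691 of 26739, held 99.96% of them. The fin labels fit the high level of the epidermal markers, of which 15 of 15 passed the filter on low counts. Keratin KRT76 (Nfu_g_1_001437, named krt5 in the fish annotation) alone had a mean of 138765 CPM (the count scaled to a common library total). Libraries of 2 fish stood apart and are named here because results are given with and without these fish. In fish 18 the clips did not match each other in the pairing check (correlation 0.147, against at least 0.752 in the other 35 fish), and the 10-week library of fish 78 had a TMM scaling factor of 0.731, with the next lowest at 0.852.

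The window fixes the limits of the ages at death, which are given as a description. Fish 1 to 50 died at 259 to 324 days, with a median of 303 days (mean 297.6 ± 18.9, SD, n = 23). Fish 51 to 84 died at 254 to 328 days, with a median of 279 days (mean 283.8 ± 24.7, SD, n = 13). Within the window, fish 51 to 84 thus died earlier by their mean, with a difference of -13.8 days. With age at death added as a covariate of the change, the comparison below called 5328 genes in place of 6268.

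The change between the clips was far larger in fish 51 to 84. In fish 1 to 50, 2748 genes changed from 10 to 20 weeks (1181 rose and 1567 fell), 15.5% of the genes tested. In fish 51 to 84, 9725 genes changed (4972 rose and 4753 fell), 55% of the genes tested, although the group is smaller. The median size of the change over all genes was 0.13 on the log2 scale in fish 1 to 50 and 0.35 in fish 51 to 84, and it was larger in fish 51 to 84 for 78.4% of genes. The difference between the changes, tested directly (change in fish 51 to 84 minus change in fish 1 to 50, called the difference in the change below), passed an adjusted p of 0.05 for 6268 genes, 35.4% of those tested. It was higher for 3227 genes and lower for 3041, with a median over all genes of 0.03. Among the genes called, the median size was 0.63 on the log2 scale. It exceeded 1 for 1230 genes (709 higher, 521 lower) and 2 for 77 genes (46 higher, 31 lower). The limits of the ranges of numbers had been set on these expression data. Neither these counts nor those below are therefore an independent test that the ranges differ.

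These p-values treat the fish as independent, while fish of nearby numbers may share more than their range. The test was therefore repeated with limma, which estimated a correlation of 0.25 between the changes of fish within groups of 10 numbers. It then called 1245 genes (624 higher, 621 lower), all of them among the 6268. The counts that this test left are given beside each list below as those with the correlation.

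Most of the genes called changed in fish 51 to 84 without a call in fish 1 to 50. Of the 6268 genes, 2596 rose and 2521 fell in fish 51 to 84 alone, 300 were called in fish 1 to 50 alone, and 165 were called in opposite directions. Another 145 rose and 226 fell in both ranges by unequal amounts, and 315 were called in neither range. A call in one range and none in the other is not itself a test of the difference, which is the test named above. The changes of single fish were also more spread in fish 51 to 84, with a median SD over genes of 0.56 against 0.47.

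The ranges differed more at the second clip than at the first. At 10 weeks, 993 genes differed between fish 51 to 84 and fish 1 to 50 (402 higher, 591 lower), 5.61% of the genes tested. At 20 weeks, 6012 genes differed (3295 higher, 2717 lower), 34% of the genes tested. Of the 6268 genes with a difference in the change, 3760 were called at 20 weeks only, 428 at 10 weeks only, 224 at both clips in opposite directions and 16 at both in the same direction, while 1840 were called at neither. The 10-week difference had the opposite sign to the difference in the change for 5407 of the 6268 genes. Both use the 10-week libraries, so this is a description and not an independent result.

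Among genes called with a mean of at least 5 CPM, the 8 named ones with the largest rise relative to fish 1 to 50 were H1F0, LPIN1, PER1, GHR, KLF9, IRS2, MSANTD4 and LPL. GHR (Nfu_g_1_018287), the growth hormone receptor, stood in fish 51 to 84 at 0.97 to 7.28 CPM (median 4.41) at 10 weeks and at 10.3 to 47.7 CPM (median 14.1) at 20 weeks. In fish 1 to 50 it stood at 1.39 to 12.6 CPM (median 5.04) and then at 1.20 to 4.99 CPM (median 2.996). At 20 weeks every fish of 51 to 84 lay above every fish of 1 to 50, while at 10 weeks the groups overlapped. GHR rose in 13 of 13 fish of 51 to 84 and in 4 of 23 fish of 1 to 50, with a difference in the change of 2.75 ± 0.32 (SE, adjusted p = 1.11e-06). LPL (Nfu_g_1_022747), lipoprotein lipase, which releases fatty acids from circulating lipoproteins, showed the same separation. It stood at 2.68 to 9.94 CPM (median 4.91) and then 9.68 to 49.6 CPM (median 23.6) in fish 51 to 84, against 1.804 to 23.9 CPM (median 5.04) and then 1.27 to 6.52 CPM (median 4.14) in fish 1 to 50. It rose in 13 of 13 and 6 of 23 fish, the groups did not overlap at 20 weeks, and the difference in the change was 2.64 ± 0.33 (adjusted p = 1.82e-06).

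LPIN1 (Nfu_g_1_018267), a phosphatidate phosphatase of triglyceride synthesis, went from 1.39 to 4.38 CPM (median 2.06) at 10 weeks to 3.82 to 36.9 CPM (median 25.6) at 20 weeks in fish 51 to 84. In fish 1 to 50 its median was 3.85 CPM at both clips, within 1.47 to 18.7 CPM and then 1.55 to 21.2 CPM. It rose in 12 of 13 and 10 of 23 fish, so the difference in the change of 3.01 ± 0.50 (adjusted p = 6.45e-05) rested on a common rise in one range and on changes of either sign in the other, and the groups overlapped at 20 weeks. IRS2 (Nfu_g_1_008662), an adaptor of the insulin receptor, had a difference of 2.70 ± 0.55 (adjusted p = 0.000426) and rose in 12 of 13 and 10 of 23 fish. H1F0 (Nfu_g_1_022942), a linker histone of non-dividing cells, had one of 3.16 ± 0.90 (adjusted p = 0.00715), but its change spanned -3.20 to 5.31 within fish 51 to 84. MSANTD4 (Nfu_g_1_000583) had one of 2.69 ± 0.51 (adjusted p = 0.00021) and rose in 13 of 13 and 17 of 23 fish. At 20 weeks the ranges did not pass the edgeR test for H1F0, IRS2 and PER1 (adjusted p = 0.162, 0.324 and 0.0624). At 10 weeks these genes were called lower in fish 51 to 84, at -2.23, -1.13 and -2.83 on the log2 scale. Of called genes without a human name and with a mean of at least 5 CPM, Nfu_g_1_016752 and Nfu_g_1_020244 had the largest differences, 3.16 and 2.66.

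**Figure D1:**
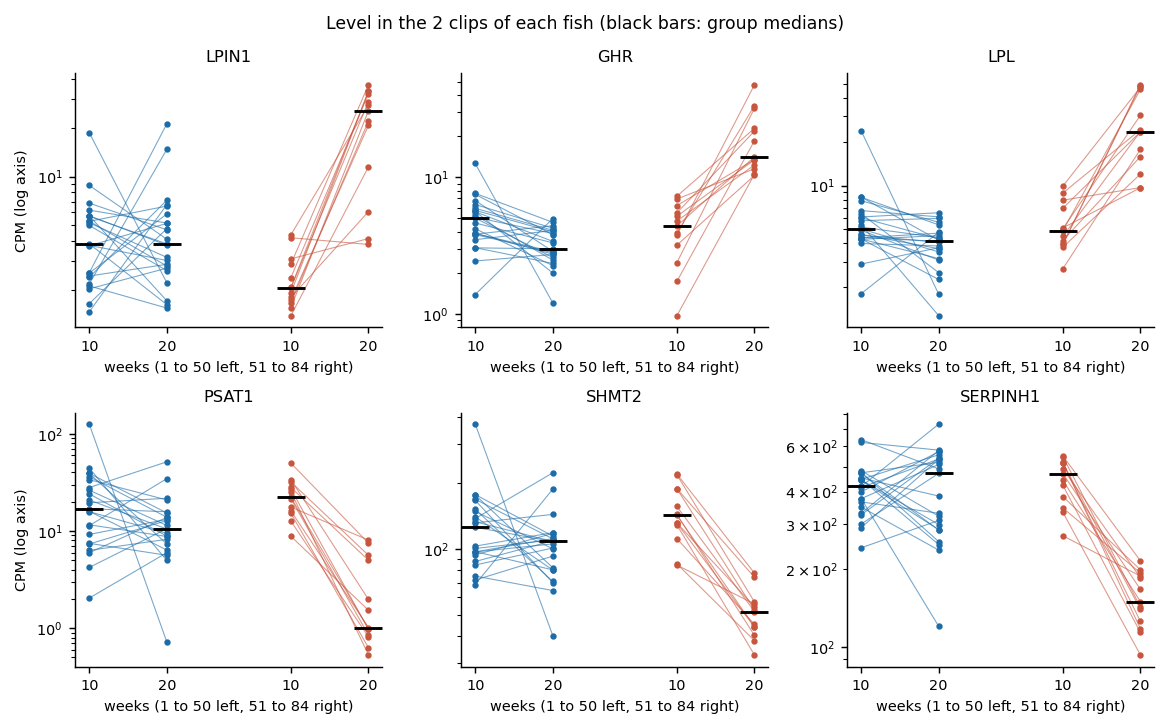
Levels of 6 genes in the clips of each fish at 10 and 20 weeks, in CPM on a log axis, with fish 1 to 50 (n = 23, blue) on the left and fish 51 to 84 (n = 13, red) on the right of each panel. Lines join the clips of a fish and black bars are group medians. GHR and LPL separate the ranges fully at 20 weeks, with lowest values of 10.3 and 9.68 CPM in fish 51 to 84 above the highest values of 4.99 and 6.52 CPM in fish 1 to 50.

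Among named genes called with a mean of at least 5 CPM, the largest relative fall was in PSAT1 (Nfu_g_1_007385), phosphoserine aminotransferase of serine synthesis. It went from 8.84 to 50.02 CPM (median 22.3) at 10 weeks to 0.53 to 8.07 CPM (median 1.02) at 20 weeks in fish 51 to 84, and from 2.04 to 126.2 CPM (median 16.99) to 0.72 to 51.6 CPM (median 10.6) in fish 1 to 50. It fell in 13 of 13 fish of 51 to 84, while it rose in 9 of 23 fish of 1 to 50. The groups overlapped at both clips, and the difference in the change was -3.06 ± 0.56 (adjusted p = 0.000146). The other named genes with a large relative fall at this level included TIMM44 (Nfu_g_1_020420, -2.45), a subunit of the mitochondrial import motor, MARS (Nfu_g_1_021631, -2.21), the methionyl-tRNA synthetase, PPRC1 (Nfu_g_1_014525, -2.07), a coactivator of mitochondrial biogenesis, PPIL1 (Nfu_g_1_021272, -2.01), a spliceosomal cyclophilin, CLTC (Nfu_g_1_000186, -1.94), the clathrin heavy chain, and DPP3 (Nfu_g_1_005293, -1.91), a dipeptidyl peptidase. TIMM44, MARS and PPRC1 did not pass the edgeR test between the ranges at 20 weeks (adjusted p = 0.212, 0.147 and 0.157). They were not called at 10 weeks either, and they rose in 3, 2 and 4 of 13 fish of 51 to 84. A globin gene (HBG1 by its human name, ba1 in the fish annotation, Nfu_g_1_007641) had a difference of -1.97, with another globin gene (Nfu_g_1_007507) at 1.43. Of called genes without a human name at this level, those with the largest relative fall were Nfu_g_1_015114 and Nfu_g_1_013428, at -3.19 and -2.86.

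Genes of the amino acid response, which cells induce through the factor ATF4 when amino acids run short, were lower as a group. Of 15 genes tested, 10 had a lower difference in the change and 0 a higher one, where 17.2% of all genes tested were lower and 18.2% higher, and the median of the list was -1.27. With the correlation, 6 of the 15 were lower. The genes called, besides PSAT1, were the tRNA synthetases WARS (-1.89), GARS (-1.71) and SARS (-1.47), the one-carbon enzymes MTHFD2 (-1.87) and SHMT2 (-1.27), the serine and asparagine enzymes PHGDH (-1.66) and ASNS (-1.67), CTH (-1.26), which makes cysteine, and SESN2 (-0.98), a sensor upstream of mTORC1. SHMT2 (Nfu_g_1_021483) fell in 13 of 13 fish of 51 to 84, from 84.4 to 220 CPM (median 142) to 32.8 to 77.5 CPM (median 51.8). In fish 1 to 50 it went from 68.8 to 371 CPM (median 125.5) to 40.2 to 223 CPM (median 108.1), and it rose in 11 of 23 fish. The groups overlapped at both clips. CHAC1, ALDH1L2, PSPH and EIF4EBP1 had values between -0.80 and 0.00 without a call. In fish 51 to 84 the list's genes changed by a median of -1.51 and 13 of 15 fell (26.9% of all genes fell), against -0.04 and 2 of 15 in fish 1 to 50 (8.86% of all genes fell).

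Chaperones of the endoplasmic reticulum moved in the same direction. Of 15 genes of folding in this compartment, 9 were lower and 0 higher (17.2% and 18.2% of all genes), with a median difference of -0.92. With the correlation, 0 of the 15 were called. Between the ranges at 20 weeks, 1 of the 15 was lower (15.4% of all genes), with a list median of -0.16. The list median at 10 weeks was 0.20, with 0 genes called. The 9 included HYOU1 (-1.45), MANF (-1.56), CRELD2 (Nfu_g_1_011824, -1.36), HSP90B1 (-1.27), PDIA4 (-1.05) and PDIA6 (-0.92), which assist folding or disulfide formation, and XBP1 (-0.44), a factor of the unfolded protein response. A copy of HSPA5 (Nfu_g_1_006740, -1.76) and one of PDIA3 (Nfu_g_1_009983, -1.74) were also called, but at means of 0.53 and 0.58 CPM, while the abundant copy of PDIA3 (Nfu_g_1_018151, 365 CPM) was at -0.24 without a call. Of 25 cytosolic and mitochondrial chaperones, 11 were lower and 3 higher (17.2% and 18.2% of all genes), with a median of -0.30. With the correlation 2 were lower and 0 higher, and in a narrower window of 270 to 320 days 1 and 0. The lower ones included HSP90AA1 (-1.39), HSPA4L (-1.01), HSPA9 (-1.01), CHORDC1 (-0.90) and HSPD1 (-0.88), and the higher ones were CCT3, CCT4 and CCT8, subunits of the chaperonin that folds actin and tubulin, at 0.22, 0.20 and 0.23, while the subunit CCT6A was lower at -0.66. At 10 weeks 6 of the 25 were already higher in fish 51 to 84, where 2.27% of all genes were. At 20 weeks 6 were higher and 1 lower, where 18.6% and 15.4% of all genes were, with a list median of -0.05.

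Most genes of the proteasome, which degrades ubiquitin-tagged proteins, were lower. Of 34 genes with an identifier, 32 were tested, 24 were lower, 0 were higher, and the list had a median difference of -0.62, where 17.2% of all genes were lower. With the correlation, 2 of the 32 were lower. The study itself singled out proteasome transcripts in these fish, so that the list is not independent evidence of its direction. PSMD13 (Nfu_g_1_022090), a lid subunit, stood in fish 51 to 84 at 60.3 to 86.97 CPM (median 72.2) at 10 weeks and 18.1 to 87.5 CPM (median 23.1) at 20 weeks, and in fish 1 to 50 at 26.8 to 114 CPM (median 58.9) and 27.3 to 85.6 CPM (median 48.8). It fell in 11 of 13 and in 13 of 23 fish, the groups overlapped, and the difference in the change was -1.14 ± 0.24 (adjusted p = 0.000674). PSMD14 (Nfu_g_1_003124), the deubiquitinase of the lid, had a difference of -0.96 ± 0.22 (adjusted p = 0.00118). In fish 51 to 84, 28 of 32 genes fell, where 26.9% of all genes fell, with a median change of -0.69. In fish 1 to 50 none of the 32 was called, where 15.5% of all genes were, with a median of -0.11. No proteasome gene differed between the ranges at 10 weeks, where 3.34% of all genes were lower, and 15 were lower at 20 weeks, where 15.4% were.

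Genes of splicing and of mitochondria had medians closer to 0. Of 36 splicing genes, 19 were lower and 0 higher (median -0.33), where 17.2% and 18.2% of all genes were, and 0 of the 36 were called with the correlation. The genes called included SNRPF (-1.15), SNRPB2 (-1.07) and PRPF19 (-0.86), parts of the spliceosome. Of 31 tested genes of the mitochondrial ribosome, 16 were lower and 1 higher (median -0.36), with MRPL51 at -0.97, MRPL17 at -0.72 and the exception MRPS11 at 0.57. With the correlation, 1 of the 31 was lower and 0 higher. Of 25 genes of the respiratory chain and ATP synthase, 9 were lower and 1 higher (median -0.23), with COX5A (Nfu_g_1_003504) at -0.77, ATP5G3 at -0.50 and the exception COX6B1 at 0.44. With the correlation, 0 of the 25 were called.

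Of 60 genes of the cytoplasmic ribosome 2 were higher and 0 lower, where 18.2% and 17.2% of all genes were, with a median difference of 0.17. With the correlation 0 were called, and in the narrower window 0 were called and the median was -0.09. The genes called were RPL8 (0.27 ± 0.08, adjusted p = 0.00611) and RPL3 (0.20 ± 0.07, adjusted p = 0.0337). In fish 51 to 84, 55 of the 60 genes rose, where 28.1% of all genes rose, with a median change of 0.28. In fish 1 to 50, 5 rose, where 6.68% of all genes rose, with a median of 0.11. At 20 weeks, 42 of the 60 were higher in fish 51 to 84, where 18.6% of all genes were higher.

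Most genes of DNA replication and mitosis fell from the first clip to the second in both ranges. Of 53 genes, 35 fell in fish 1 to 50 (median change -0.69), where 8.86% of all genes fell. In fish 51 to 84, 47 fell (median -1.08), where 26.9% of all genes fell. The difference in the change was lower for 13 and higher for 1 (HMGB2, Nfu_g_1_015637, 0.40), with a median of -0.25, where 17.2% and 18.2% of all genes were lower and higher. With the correlation 1 of the 53 was lower and 0 higher, and in the narrower window 0 were lower and 1 higher. The genes called were mainly those of replication forks and nucleotide supply. Of the replicative helicase these were MCM2 (2 genes, both -1.50), MCM3 (-1.21), MCM4 (-1.60) and MCM6 (-1.48). The others included PCNA (-1.16), the sliding clamp of the fork, and RRM1 (-1.23) and TYMS (-0.94), which make deoxynucleotides. UHRF1 (-1.09), RPA1 (-0.80) and POLD2 (-0.71) were called too. LMNB1, a lamin of the nuclear envelope, was at -1.49. Of the mitotic genes only CCNB2 was called, at -0.24. Between the ranges at 20 weeks, 35 of the 53 were lower in fish 51 to 84 and 2 higher, with a list median of -0.65. Of all genes, 15.4% were lower and 18.6% higher at that clip. At 10 weeks 1 of the 53 was lower and 0 higher (3.34% and 2.27% of all genes), with a list median of -0.30.

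**Figure D2:**
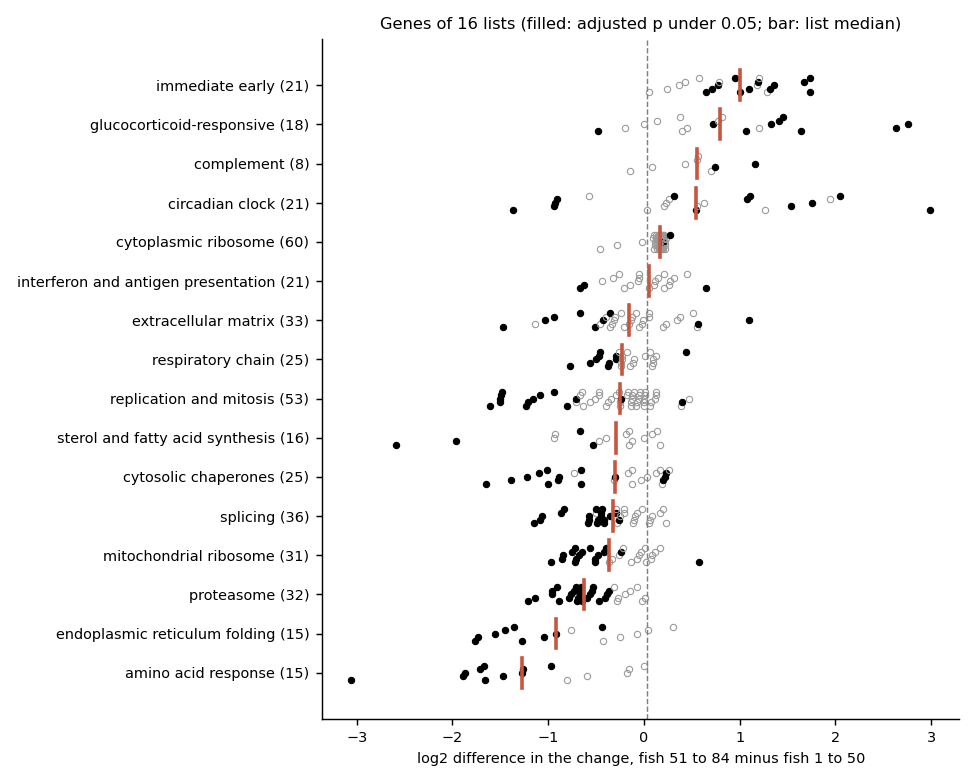
Log2 difference in the change (fish 51 to 84 minus fish 1 to 50) of each tested gene of 16 lists, with the number of genes in brackets. Filled points passed an adjusted p of 0.05, red bars are list medians and the dashed line is the median of all genes tested, 0.03. List medians ran from -1.27 for the amino acid response to 1.01 for immediate early genes.

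Glucocorticoid-responsive genes and immediate early genes were higher as groups. Of 18 glucocorticoid-responsive genes tested (of 19 with an identifier), 8 were higher and 1, GLUL, was lower at -0.48, with a median difference of 0.79, where 18.2% of all genes were higher. With the correlation, 3 of the 18 were higher and 0 lower. All 3 genes named TSC22D3, an anti-inflammatory target of the glucocorticoid receptor in mammals, were called, at 2.63 (Nfu_g_1_003683), 1.64 (Nfu_g_1_004440) and 1.45 (Nfu_g_1_003613). The first stood in fish 51 to 84 at 1.62 to 2.82 CPM (median 2.03) and then 4.02 to 27.7 CPM (median 14.7), and in fish 1 to 50 at 1.57 to 18.8 CPM (median 3.24) and then 1.41 to 7.72 CPM (median 3.93). It rose in 13 of 13 and 12 of 23 fish, and the groups overlapped at both clips. KLF9 (Nfu_g_1_008967, 2.75 ± 0.65, adjusted p = 0.00174) and KLF13 (1.06), transcription factors, DDIT4 (1.41), which restrains mTORC1, ERRFI1 (0.72), a feedback inhibitor of the epidermal growth factor receptor, and a copy of ZBTB16 (Nfu_g_1_022092, 1.32) were higher too. FKBP5, a widely used reporter of glucocorticoid action, had a difference of 1.20 ± 0.70 that did not pass the test (adjusted p = 0.18), and the receptor gene NR3C1 was at 0.37.

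Of 21 immediate early genes tested, 12 were higher and 0 lower, with a median difference of 1.01, where 18.2% of all genes were higher. With the correlation, 2 of the 21 were higher. The 12 included EGR1 (1.67) and EGR3 (1.74), CEBPB (1.19), NR4A3 (1.10), FOSL1 (1.36), FOSL2 (0.71), JUND (0.65), KLF6 (0.78) and both genes named CSRNP1 (1.01 and 1.32). FOS was at 0.43 ± 0.89 and JUN at 0.05, both without a call. In single fish the median change of the list lay between 0.22 and 2.06 in fish 51 to 84, above 0 in 13 of 13, and between -0.69 and 2.67 in fish 1 to 50, above 0 in 9 of 23. The highest value of all, 2.67, belonged to fish 10 of the lower range, which also had the highest value for glucocorticoid-responsive genes, 2.19.

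Clock genes were called in both directions. Of 21 genes tested, 8 were higher and 4 lower (18.2% and 17.2% of all genes), with a median difference of 0.54. With the correlation 0 of the 21 were higher and 1 lower. The higher ones were PER1 (2.99 ± 0.85, adjusted p = 0.00662) and CRY1 (0.54) and CRY2 (0.32) of the repressing arm, and HLF (Nfu_g_1_001056, 2.05), TEF (1.76), NR1D2 (Nfu_g_1_010960, 1.53), BHLHE40 (1.11) and CIPC (1.08), which are output or feedback factors. The lower ones were ARNTL (-0.90) and ARNTL2 (-1.37) of the activating arm, PER2 (-0.94), which like PER1 belongs to the repressing arm, and TIMELESS (-0.93). PER3 was at 1.95 ± 0.83 without a call (adjusted p = 0.063). In the narrower window 0 of the 21 had a higher difference in the change and 1 a lower one. At 10 weeks 1 of the 21 was higher in fish 51 to 84 and 5 lower, where 2.27% and 3.34% of all genes were. At 20 weeks 6 were higher and 1 lower, where 18.6% and 15.4% of all genes were. PER1 (Nfu_g_1_003740) stood in fish 51 to 84 at 2.64 to 17.6 CPM (median 4.22) and then 7.85 to 166 CPM (median 93.9), and in fish 1 to 50 at 4.42 to 211 CPM (median 15.01) and then 3.05 to 84.3 CPM (median 29.3). The groups overlapped at both clips.

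The clock genes did not change alike over the fish of a range. PER1 rose by 5.09 to 5.36 in the 3 fish numbered 51 to 60 and by 4.32 to 5.34 in the 5 fish numbered 61 to 70, whereas it changed by -0.63 to -0.16 in the 3 fish numbered 71 to 80 and by -1.13 and 1.17 in the 2 fish numbered 81 to 84. ARNTL (Nfu_g_1_008007) changed by -2.22 to -1.29 and by -1.77 to -1.44 in the first of these groups and by -0.31 to 0.49 and -0.14 to 0.15 in the others. Within fish 1 to 50, PER1 had medians of 1.92 and 2.11 in the fish numbered 21 to 30 and 31 to 40, with extremes of -3.02 and 3.32, and medians of -1.31, 0.10 and -0.11 in the other groups of 10 numbers. HLF rose in all groups of 51 to 84, with medians from 1.47 to 2.69. The labels give no hour of clipping, and its part in these values was not tested.

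**Figure D3:**
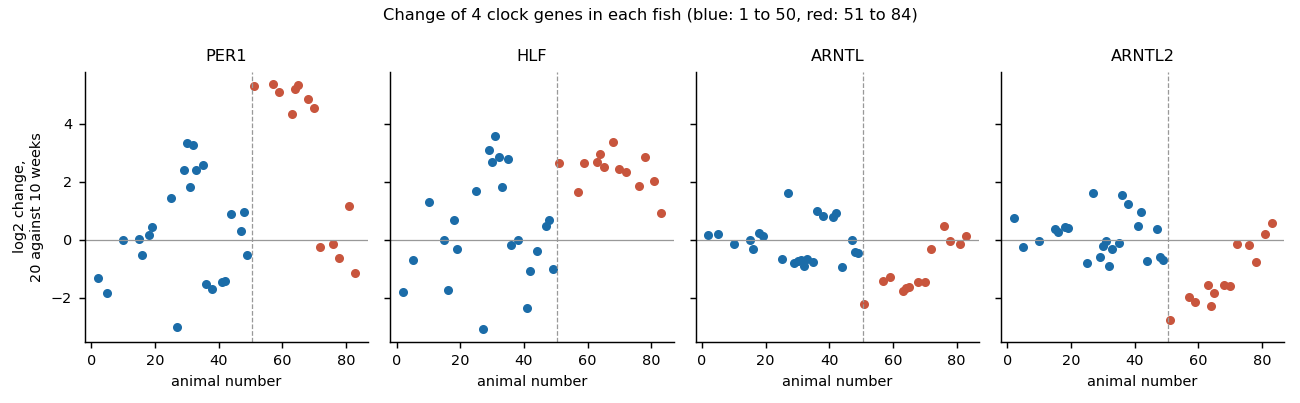
Log2 change between the clips of PER1, HLF, ARNTL and ARNTL2 in each fish, against the animal number (blue, fish 1 to 50, n = 23, and red, fish 51 to 84, n = 13). Fish numbered 51 to 70 have PER1 changes of 4.32 to 5.36, above all other fish, and the 5 fish numbered 71 to 84 lie between -1.13 and 1.17.

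For the other lists, counts of the difference in the change stand beside 17.2% of all genes lower and 18.2% higher. Of 33 tested genes of the extracellular matrix, 7 were lower and 2 higher (median -0.15). With the correlation 4 were lower and 0 higher, and in the narrower window 2 and 2 with a median of 0.13. At 20 weeks 20 of the 33 were lower in fish 51 to 84 and 3 higher (15.4% and 18.6% of all genes), with a list median of -0.52. At 10 weeks 3 were lower and 0 higher (3.34% and 2.27% of all genes), with a list median of -0.28. SERPINH1 (Nfu_g_1_000192), the chaperone of collagen in the endoplasmic reticulum, stood at 270 to 551 CPM (median 471) and then 93.3 to 216 CPM (median 150) in fish 51 to 84, and at 243 to 637 CPM (median 419) and then 120 to 732 CPM (median 472) in fish 1 to 50. It fell in 13 of 13 and 12 of 23 fish, 1 low fish of 1 to 50 overlapped the other range at 20 weeks, and the difference in the change was -1.48 ± 0.21 (adjusted p = 1.35e-05). TNC (-0.93), COL5A2 (-1.03) and SPARC (-0.67), matrix proteins of connective tissue, were lower, and the proteoglycan VCAN (1.10) and the collagen hydroxylase P4HA1 (0.57) were higher. Of 16 genes of sterol and fatty acid synthesis, 4 were lower, namely NSDHL (-2.59, at a mean of 0.89 CPM), SQLE (-1.97), SREBF1 (-0.66) and FADS1 (-0.53), and 0 were higher. With the correlation, 1 of the 16 was lower. At 10 weeks 3 of the 16 were higher in fish 51 to 84 and 0 lower (2.27% and 3.34% of all genes), with a list median of 0.24. At 20 weeks 0 were higher and 1 lower (18.6% and 15.4% of all genes), with a list median of 0.03. In the difference in the change of 21 interferon and antigen presentation genes, B2M was higher (0.64) and TLR3 (-0.67) and SAMHD1 (-0.62) were lower. Of 8 complement genes, C3 (0.74) and C7 (1.16) were higher and 0 lower. With the correlation, 0 interferon and antigen presentation genes and 0 complement genes were called.

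Among markers of the cell types in the fin, the endothelial and epidermal lists held more higher calls of the difference in the change than their share. Over all genes tested, 18.2% were higher and 17.2% lower. This is the share beside every marker count below, except where a single clip is named. Of 7 endothelial genes, 6 were higher and 0 lower (median difference 0.57), namely CLDN5 (1.08), CD93 (0.93), KDR (0.68), ESAM (0.57), TIE1 (0.43) and PECAM1 (0.41), and all 7 were detected. With the correlation, 2 of the 7 were higher. At 10 weeks 0 of the 7 were higher in fish 51 to 84 and 2 lower (2.27% and 3.34% of all genes). At 20 weeks 3 were higher and 0 lower (18.6% and 15.4% of all genes). KDR (Nfu_g_1_017927), the main receptor of vascular endothelial growth factor, stood at 29.7 to 46.6 CPM (median 36.5) and then 35.5 to 75.5 CPM (median 48.3) in fish 51 to 84 and at 34.7 to 72.97 CPM (median 46.2) and then 26.2 to 49.7 CPM (median 37.7) in fish 1 to 50. It rose in 11 of 13 and fell in 20 of 23 fish, with overlap at both clips. The summed level of the list lay at 71.8 to 119 CPM and then 79.4 to 142 CPM in fish 51 to 84, and at 83.2 to 164 CPM and then 65.3 to 120 CPM in fish 1 to 50.

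Of 15 epidermal genes, 7 were higher and 1 lower (18.2% and 17.2% of all genes), with a median of 0.35. With the correlation 1 of the 15 was higher and 0 lower. At 10 weeks 0 of the 15 were higher in fish 51 to 84 and 4 lower (2.27% and 3.34% of all genes). At 20 weeks 2 were higher and 2 lower (18.6% and 15.4% of all genes). The genes with a higher difference in the change were mainly of cell junctions. They were DSG3 (1.40), DSC3 (1.05), LAMA3 (0.84), ITGB4 (0.81), DSP (0.74) and PKP1 (0.64), with the factor TP63 (0.47). The most abundant keratin, KRT76 (-0.51), was lower. The summed level, which that keratin dominates, was 134861 to 369295 CPM and then 99938.8 to 201914 CPM in fish 51 to 84, and 94887.9 to 248566 CPM and then 129114 to 204194 CPM in fish 1 to 50. Of 6 leukocyte genes, IL2RB was higher (1.20) and 1 gene lower, and the sum was 360 to 558 CPM and then 373 to 651 CPM in fish 51 to 84, and 216 to 580 CPM and then 201 to 529 CPM in fish 1 to 50. Of 7 tested muscle genes 1 was higher and 2 lower, of 6 red blood cell genes 1 and 2, of 9 nerve and glia genes 1 and 3, of 4 pigment cell genes 0 and 1, and of 3 bone and cartilage genes none. With the correlation, 0 genes of these lists, leukocytes included, were called. Their sums at 20 weeks in fish 51 to 84 and in fish 1 to 50 were 42.1 to 84.3 and 48.7 to 91.8 CPM for muscle, 141 to 202 and 148 to 332 CPM for red blood cells, 44.9 to 110.5 and 75.2 to 244 CPM for nerve and glia, 155 to 320 and 148 to 339 CPM for pigment cells, and 370 to 626 and 314 to 794 CPM for bone and cartilage. Only markers that passed the filter on low counts were tested. Of genes with an identifier, these were 7 of 13 for muscle and 6 of 11 for red blood cells. They were 9 of 14 for nerve and glia and 3 of 6 for bone and cartilage. The part of cell makeup in the differences above was not tested.

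**Figure D4:**
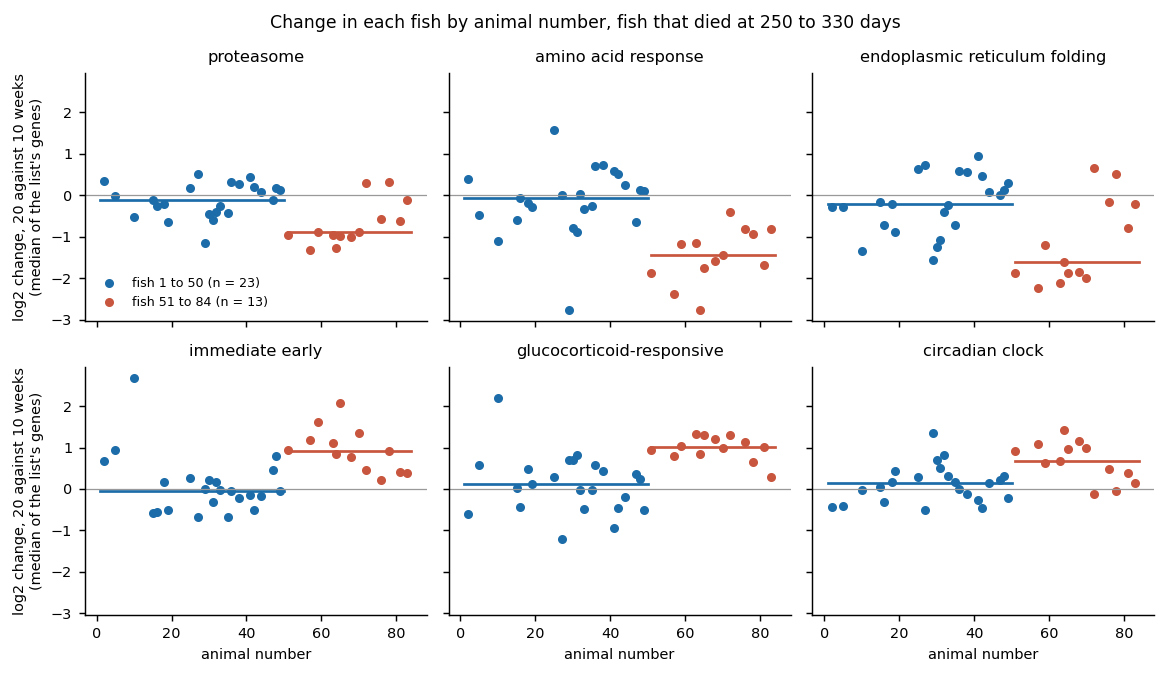
Median log2 change between the clips over the genes of 6 lists in each fish, against the animal number (blue, fish 1 to 50, n = 23, and red, fish 51 to 84, n = 13), with lines at the medians of the ranges. Medians in fish 51 to 84 were -0.89 for the proteasome and -1.43 for the amino acid response, and values overlapped between the ranges in every panel.

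The change varied with the animal number within the ranges. The median change of the proteasome list was -0.95 in the 3 fish numbered 51 to 60 and -0.97 in the 5 fish numbered 61 to 70, and all 8 lay between -1.31 and -0.88. It was 0.29 in the 3 fish numbered 71 to 80, with a span from -0.57 to 0.33, and -0.37 in the 2 fish numbered 81 to 84. Within fish 1 to 50 the widest span was -1.14 to 0.50, in the 4 fish numbered 21 to 30. The genes of endoplasmic reticulum folding had medians of -1.88, -1.87, 0.50 and -0.51 in these groups of 10 numbers, and within fish 1 to 50 the medians ran from -0.47 to 0.21. By contrast, the amino acid response had medians of -1.86, -1.57, -0.81 and -1.25, glucocorticoid-responsive genes 0.94, 1.19, 1.13 and 0.66, and GHR (Nfu_g_1_018287) 1.37, 1.68, 3.39 and 2.19, so that these kept 1 direction over all groups of 51 to 84.

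With the 9 groups of 10 numbers as the unit (5 in the lower and 4 in the upper range), an exact permutation test of the group means, over all splits, can give no p under 0.00794. Of 80 genes named by rule, 37 had an exact p under 0.05 and 12 reached the smallest value, among them GHR, LPL, LPIN1, MSANTD4, both TSC22D3 genes named by rule, SHMT2, CD93, COX6B1 and KRT76. For these, the means of all groups of 10 numbers in one range lay beyond those in the other. The exact p was 0.0159 for PSAT1, SERPINH1 and KDR, 0.0317 for PSMD13 and HLF, 0.198 for PER1 and 0.238 for H1F0 and TIMM44. The genes had been chosen by the same contrast in the same fish, and after Benjamini-Hochberg adjustment over the 80 genes the lowest value was 0.0529.

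The same contrast was made in fish that died outside the window, which share no library with those above (25 fish of 1 to 50 and 21 of 51 to 84). They were not matched for lifespan, since 18 of the 21 had died before 250 days while 18 of the 25 outlived 330 days, so that range and lifespan cannot be told apart in them. The difference in the change was called for 8986 genes, 50.8% of those tested. Of the 6268 genes called in the matched fish, 5076 were called in these fish in the same direction and 0 in the opposite one, which is 80.98% of the first list and 56.5% of the second. The sign was the same for 98.4% of the 6268 genes, against 83.9% of all genes tested. Since the limits of the ranges had been set on expression data of this series, this agreement is a description and not independent support. List medians in the unmatched fish were -0.88 for the proteasome (30 of 32 lower, where 27.1% of all genes were lower), -1.65 for the amino acid response, -1.50 for endoplasmic reticulum folding, 0.74 for glucocorticoid-responsive genes, 0.53 for immediate early genes (8 of 21 higher, where 23.7% of all genes were higher) and 0.55 for clock genes. Counts of 2 other lists lay far from those in the matched fish. Of the cytoplasmic ribosome, 56 of 60 genes were higher and 3 lower in the unmatched fish (median 0.29), against 2 and 0 in the matched fish. Of replication and mitosis, 0 of 53 were higher and 40 lower (median -0.79), against 1 and 13. GHR was at 2.86, LPL at 2.95, PSAT1 at -3.36, PER1 at 3.76 and SERPINH1 at -1.23 in the unmatched fish.

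**Figure D5:**
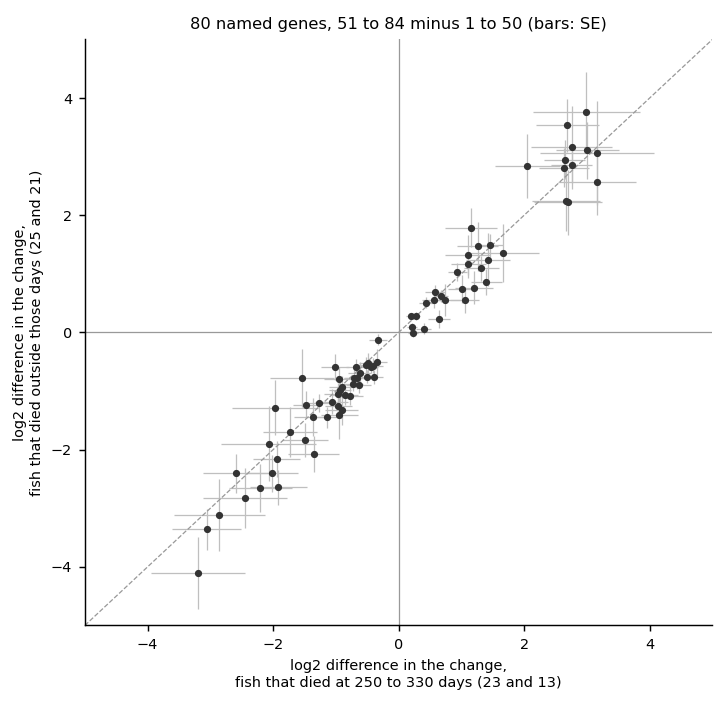
Log2 difference in the change (fish 51 to 84 minus fish 1 to 50) of 80 named genes in the 36 fish that died at 250 to 330 days, on the horizontal axis, and in the 46 that died outside these days, on the vertical axis. Bars are standard errors and the dashed line marks equal values. LPL lies at 2.64 and 2.95 and PSAT1 at -3.06 and -3.36.

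Over all genes, the first principal component of the changes held 26.8% of the variance and separated the ranges in part. Fish 51 to 84 lay between -42.3 and 97.9 (median 64.04) and fish 1 to 50 between -74.7 and 42.3 (median -24.5). Of the 13 fish of 51 to 84, 5 lay within the values of fish 1 to 50, and 17 of the 23 lay within those of fish 51 to 84. Leaving out fish 18 gave 6104 calls, of which 6016 were among the 6268, and leaving out fish 78 gave 7072, of which 6011 were. Without fish 78, 18 of 60 genes of the cytoplasmic ribosome were higher in place of 2, and 11 of 15 genes of endoplasmic reticulum folding were lower in place of 9.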

How the data were processed

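Libraries were unstranded (TruSeq RNA v2), so that genes that overlap on opposite strands cannot be fully told apart. Close paralogs cannot be fully told apart either. The authors deposited raw counts for every gene in each library, whole numbers that had not been normalized. Tools listed in the submitters' notes are featureCounts 1.5.0, TopHat2 2.1.0 and bcl2fastq 1.8.4. The study states a genome and annotation for its brain libraries, and none for the fin libraries in the sources used here. Animals, lists and tests were chosen with earlier results of these data known. The limits of the ranges of numbers had been set on these expression data.

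Counts were tested with edgeR 4.0.16 (R 4.3.3), after filterByExpr, with TMM factors and the quasi-likelihood test, two-sided, with Benjamini-Hochberg adjustment over all genes tested. The fish was a block, and the contrast was the difference between ranges in the change from 10 to 20 weeks. Each range was also tested alone, and the ranges were compared at each clip without a block. CPM are on the TMM-scaled total, and changes of single fish are differences of log2 CPM with a prior count of 1. Pairing comes from the fish named in the labels. In the check, both clips were each other's best match over 300 genes in 35 of 36 fish (median correlation 0.881). DESeq2 1.42.0, limma 3.58.1 and other settings were alternatives. On simulated counts for the main contrast, 61 of 100 genes changed by log2 1 and 100 of 100 changed by log2 2 were called, with 5 false calls among 1800. The simulated fish were independent and all genes had the same dispersion. These rates therefore do not cover fish that are alike within groups of 10 numbers.

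Human names are best matches in the study's supplementary tables, used for names only. They cover 4827 of the 17691 genes tested, and 41.0% of the named genes were called, so that the named genes are not a random draw. Genes named in the text are the 8 with the largest difference in each direction among named genes with an adjusted p under 0.05 and a mean CPM of at least 5, the 2 genes of each list with the lowest p in each direction (the 2 most abundant where none was called), and 2 identifiers without a name in each direction. Other list members were named after their values were seen. The 36 fish are separate animals by their labels, each with 2 samples, and the p-values treat fish as independent.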

Additional observations from a re-analysis of the deposited data

Results flagged for a closer look

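The difference between the ranges in the change from 10 to 20 weeks was tested itself and passed for 6268 genes. Among genes called with a mean of at least 5 CPM, 8 named genes and 2 without a name are listed in each direction. They had the largest differences of their kind (log2, change in fish 51 to 84 minus change in fish 1 to 50). Higher were H1F0 (3.16), LPIN1 (3.01), PER1 (2.99), GHR (2.75), KLF9 (2.75), IRS2 (2.70), MSANTD4 (2.69), LPL (2.64), Nfu_g_1_016752 (3.16) and Nfu_g_1_020244 (2.66). Lower were PSAT1 (-3.06), TIMM44 (-2.45), MARS (-2.21), PPRC1 (-2.07), PPIL1 (-2.01), HBG1 (Nfu_g_1_007641, -1.97), CLTC (-1.94), DPP3 (-1.91), Nfu_g_1_015114 (-3.19) and Nfu_g_1_013428 (-2.86). In the 4 fish numbered 85 and above that died in the same window, 1 fish stood far from the others for MSANTD4. Its change was 0.73 where the others had fallen. Changes of these fish were computed for 80 named genes, so that single cases of this kind can arise by chance.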

How the results depend on the processing

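In place of the 6268 genes, 10678 (5299 higher, 5379 lower; 6030 of them among the 6268) were called without the window (48 and 34 fish), 1763 (915 higher, 848 lower; 1704 among the 6268) in a narrower window of 270 to 320 days (18 and 6 fish) and 1245 (624 higher, 621 lower) by limma with groups of 10 numbers as a block. The first uses more fish and the second fewer. The narrower window gave 47 genes at 10 weeks (27 higher, 20 lower) and 1490 at 20 weeks (956 higher, 534 lower). Without the replicate block of fish, 5007 genes differed in the change, 2034 changed in fish 1 to 50 (757 rose) and 8846 in fish 51 to 84. No filter on low counts, DESeq2, DESeq2 size factors and limma without groups gave 5909, 6922, 6267 and 6355. Lower calls in the proteasome and in endoplasmic reticulum folding went from 24 and 9 to 6 and 1 in the narrower window and to 11 and 2 without the replicate block. None of these settings called a gene of the 6268 in the opposite direction. Of the 80 named genes, 48 lost their call with groups of 10 as a block, 46 in the narrower window and 16 without the replicate block, and at most 4 in any other setting. At this depth and number of fish the simulation, in which fish were independent, recovered all genes changed by log2 2 and 61 of 100 changed by log2 1. Smaller differences can therefore be missed, and these rates do not hold for fish alike within groups of 10 numbers.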

Other observations

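The 4 fish numbered 85 and above that died in the same window (294 to 312 days) are too few for a comparison with the ranges and were not tested. Their median change of the proteasome list lay between 0.00 and 0.61, against -1.31 to 0.33 in fish 51 to 84 and -1.14 to 0.50 in fish 1 to 50. Endoplasmic reticulum folding lay between -0.23 and 0.63, the amino acid response between -0.52 and 0.22, glucocorticoid-responsive genes between -1.04 and 0.20 and immediate early genes between -1.15 and 0.28. PER1 changed by -4.55 to -2.16 and ARNTL by 1.30 to 1.82 in these fish, which is the opposite sign to the medians of fish 51 to 84 for both genes. LPL fell in all 4, by -1.54 to -0.68 on the log2 scale, as did SERPINH1, by -1.79 to -0.77.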
